A study of Mus musculus with 20 samples.

Results

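Aminoacyl-tRNA synthetases, the enzymes that load each tRNA with its amino acid, were examined in whole hearts of mice with iron-deficiency anemia (IDA) by RNA-seq. The members were chosen by gene symbol alone, and 36 of the 23420 genes in the count table matched, of which 20 encode the cytosolic enzymes and 16 the mitochondrial enzymes. Gars and Kars were placed with the cytosolic enzymes, although each gene serves both compartments. All hearts came from male wild type C57BL/6 mice aged 9 weeks. The 10 control mice received a control diet and the 10 IDA mice an iron-deficient diet, each for 6 weeks from the age of 3 weeks. By their labels the 2 groups differed in diet alone, and the RNA came from heart tissue rather than from isolated myocytes.

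A synthetase recognizes 1 amino acid and its tRNAs, and uses ATP to join them before the charged tRNA is delivered to the ribosome. Mitochondria carry their own ribosomes and tRNAs, and most amino acids have a separate nuclear-encoded synthetase that is imported to charge them. In the cytosol, several of the enzymes are held with scaffold proteins in the multisynthetase complex and the others act free of it. The heart depends on mitochondrial translation for the core subunits of the respiratory chain, and inherited defects of several mitochondrial synthetases are known causes of cardiomyopathy. Many of the cytosolic synthetase genes are also targets of ATF4, the transcription factor of the amino acid response.

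The libraries held 6797180 to 8960688 counted fragments each in control and 6682177 to 7833916 in IDA. All 7 cardiomyocyte markers were detected, with a summed level of 3816 to 4644 CPM (counts scaled to library size) in control and 3358 to 4722 CPM in IDA. Of these Nppa (log2 fold change 0.33), Tnni3 (0.15) and Myl2 (0.14) were higher in IDA and Ryr2 (-0.51) was lower. Over all mice, unscaled counts ran only from 1513 to 1711 for Tnni3 and from 1303 to 1512 for Myl2. Library sizes spread more widely in proportion, and their part in both rises was not tested. The erythroid markers moved with diet. The mean level of Alas2 was 76.0 CPM in control and 203.6 CPM in IDA (log2 fold change 1.42), and that of Slc4a1 was 2.74 and 45.2 CPM (log2 fold change 4.04). Of the defining globin genes, Hba-a1, Hba-a2 and Hbb-b2 were listed at 0 in every mouse. Hbb-b1 had at most 1 count, and Hbb-bs and Hbb-bt had no entry among the counted genes. Whether these values reflect the hearts or the counting was not tested. Of 6 tested leukocyte markers 4 were higher and 1 lower in IDA, and of 4 endothelial markers 3 were lower, with summed endothelial levels of 1135 to 1323 CPM in control and 949 to 1239 CPM in IDA. Fibroblast and smooth muscle markers each had 1 gene higher and 1 lower. In such bulk tissue, fewer cells of a type and less RNA per cell cannot be told apart. The part of these shifts in the synthetase values was not tested. A fit with the erythroid markers as a covariate is given, with its limit, beside the member counts.

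Most synthetase transcripts were modestly more abundant in the IDA heart. Of the 36 members, 24 were higher in IDA, 2 were lower and 10 did not pass the test (edgeR quasi-likelihood test, Benjamini-Hochberg adjusted p below 0.05 over 13590 tested genes). Over all tested genes, 35.0% were called higher and 32.5% lower, so that the members' count was tilted to the higher side where the background was nearly even. The cytosolic group had 14 members higher and 1 lower, and the mitochondrial group 10 higher and 1 lower. The median log2 fold change was 0.21 for the cytosolic and 0.25 for the mitochondrial enzymes, against 0.023 over all tested genes. The difference between the compartments was not tested. For each mouse, the median deviation of the cytosolic members from their control mean was -0.077 to 0.096 log2 CPM in control and 0.084 to 0.30 in IDA. The mitochondrial members deviated by -0.10 to 0.080 in control and 0.055 to 0.38 in IDA. In each compartment 9 of 10 IDA mice exceeded the highest control mouse. With the erythroid markers as a covariate, 13 cytosolic and 9 mitochondrial members were higher and 1 of each lower, where 25.6% of all tested genes were called higher and 25.3% lower. The mean erythroid marker level was 1.76 to 3.18 log2 CPM in control mice and 3.76 to 7.15 in IDA mice. As these ranges did not overlap, the fit cannot separate erythroid content from diet.

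**Figure D1:**
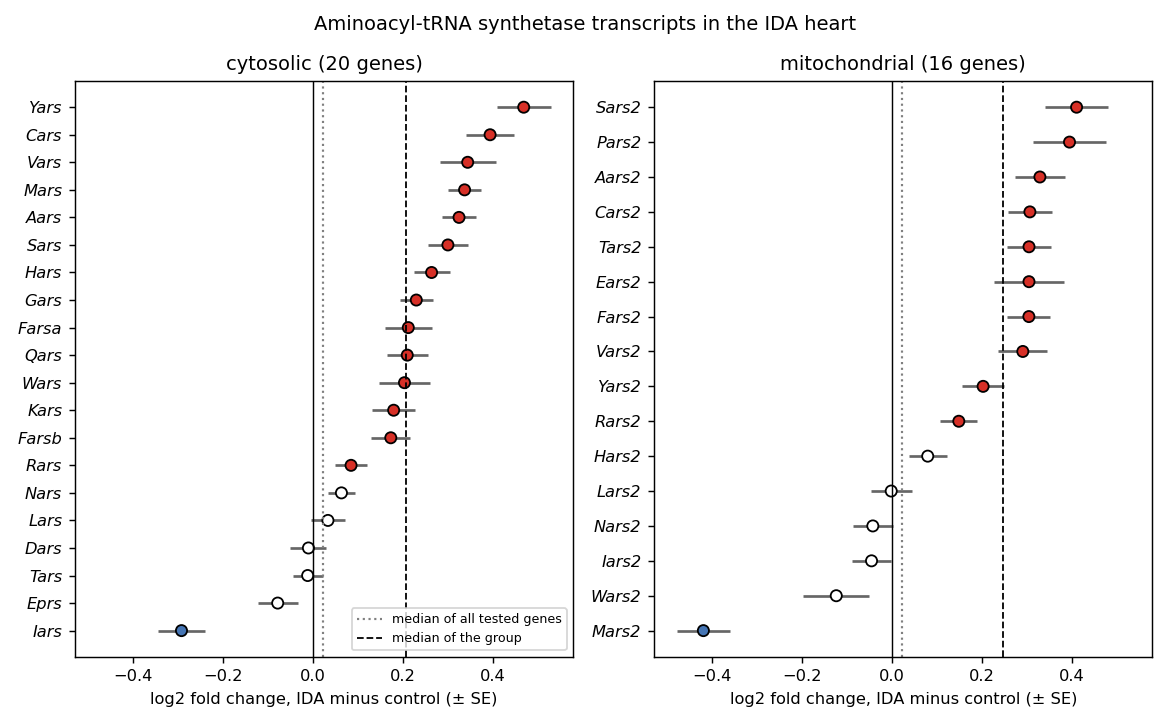
Log2 fold change of each synthetase (IDA minus control, horizontal axis, bars are SE, 10 mice per group) for the cytosolic enzymes on the left and the mitochondrial enzymes on the right. Red points were called higher, blue lower and white not called at an edgeR adjusted p below 0.05. Most points lie right of the dotted median of all tested genes (0.023), while Iars and Mars2 stand apart on the left.

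With TMM scaling alone, Yars had the largest log2 fold change of the members. It encodes the cytosolic tyrosyl-tRNA synthetase (chromosome 4, 129189795 to 129219607, mm10). Its level ran from 78.4 CPM through a median of 84.3 to 99.3 CPM in control, and from 96.9 through 125 to 136 CPM in IDA. In IDA, 9 of 10 mice lay above the highest control mouse. The log2 fold change was 0.47 ± 0.060 (SE, n = 10 per group, edgeR adjusted p = 8.21e-07), a 1.38-fold difference. Its exons share 30 bp with C77080 on the opposite strand, whose own log2 fold change was 0.0013.

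Cars, the cysteinyl enzyme (chromosome 7, 143557230 to 143600090), spanned 46.4, 54.2 and 59.7 CPM as lowest, median and highest value in control and 59.6, 71.7 and 77.9 CPM in IDA. The groups met only at their edges, since the lowest IDA mouse fell just under the highest control mouse. This gave a log2 fold change of 0.39 ± 0.053 (edgeR adjusted p = 1.41e-06). Vars, which charges valine (chromosome 17, 35000907 to 35016329), gave 98.3, 111 and 128 CPM in control and 114, 145 and 157 CPM in IDA. Here 7 IDA mice were above all controls, and the highest control value, 128 CPM in control mouse 2, was set apart from the next at 114 CPM. Its log2 fold change was 0.34 ± 0.062 (edgeR adjusted p = 4.29e-05).

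Mars, the cytosolic methionyl enzyme that also charges the initiator tRNA (chromosome 10, 127296221 to 127311786), ran from 111 through 120 to 128 CPM in control and from 136 through 155 to 164 CPM in IDA. No IDA mouse overlapped the controls. The log2 fold change was 0.34 ± 0.037 (edgeR adjusted p = 2.63e-07). It shares 68 bp of exon with Ddit3 on the opposite strand, which was itself higher by 0.47 on the log2 scale.

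Aars, the alanyl enzyme (chromosome 8, 111033967 to 111056870), measured 172, 189 and 210 CPM as lowest, median and highest in control and 220.7, 237.6 and 252.2 CPM in IDA, again without overlap. Between diets the log2 fold change was 0.33 ± 0.039 (edgeR adjusted p = 4.56e-07). Of its exonic bases, 532 (10.9%) also belong to Exosc6 on the same strand, a gene with a log2 fold change of 0.63, and reads there could come from either gene. Sars, for serine (log2 fold change 0.30), and Hars, for histidine (0.26), were the other cytosolic enzymes in which every IDA mouse exceeded every control. Together with Mars, Aars and the mitochondrial Cars2 they made 5 members with this separation, where 4.97% of all tested genes had it. No member had every IDA mouse below every control, against 6.28% of tested genes.

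The remaining cytosolic members called higher were Gars for glycine (log2 fold change 0.23), Farsa and Farsb for the 2 subunits of the phenylalanyl enzyme (0.21 and 0.17), Qars for glutamine (0.21), Kars for lysine (0.18) and Rars for arginine. Rars (chromosome 11, 35808381 to 35834528), at 88.7, 97.8 and 103 CPM in control and 94.9, 102 and 108 CPM in IDA, had the smallest called change of all members in this fit. Its log2 fold change was 0.085 ± 0.035 (edgeR adjusted p = 0.0343), and the call was lost in 59 of the 100 fits that left out 1 mouse of each group. Farsa also had a control mouse above the others of its group, control mouse 6 at 56.9 CPM with the next at 50.6 CPM.

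Iars, the isoleucyl enzyme (chromosome 13, 49682130 to 49734267), was the sole cytosolic member to fall. It measured 151, 171 and 180 CPM in control and 107, 141 and 159 CPM in IDA. Of the IDA mice, 9 lay below the lowest control mouse. The corresponding log2 fold change was -0.29 ± 0.052 (edgeR adjusted p = 3.4e-05). After the gene length correction described further on, it was -0.062 and no longer called (edgeR adjusted p = 0.192).

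The cytosolic members that did not pass the test were Nars for asparagine (log2 fold change 0.063), Lars for leucine (0.033), Dars for aspartate (-0.0099), Tars for threonine (-0.012) and Eprs. Eprs encodes a fused enzyme for glutamate and proline (chromosome 1, 185363095 to 185428355) and had the highest CPM in control among the cytosolic members, without regard to length, at 233.6, 258.5 and 284.2 CPM, against 210.8, 248.8 and 279.8 CPM in IDA. The groups overlapped across most of their range (log2 fold change -0.078 ± 0.044, edgeR adjusted p = 0.12).

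Among the mitochondrial enzymes, Sars2, which charges serine (chromosome 7, 28741968 to 28753879), had the largest rise with TMM scaling alone. It ran from 28.7 through 34.5 to 43.9 CPM in control and from 37.6 through 45.0 to 52.1 CPM in IDA, with 7 IDA mice above all controls. Its log2 fold change was 0.41 ± 0.071 (edgeR adjusted p = 2.55e-05), a call that was lost when length and GC content were corrected. Pars2, the prolyl enzyme (chromosome 4, 106651069 to 106655282) and the member with the lowest CPM, gave 13.0, 17.4 and 20.2 CPM in control and 19.1, 22.3 and 26.1 CPM in IDA. In the fit its log2 fold change was 0.39 ± 0.081 (edgeR adjusted p = 0.00017), and 8 IDA mice were above all controls.

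Aars2, the mitochondrial alanyl enzyme (chromosome 17, 45506841 to 45520843), measured 77.8, 88.1 and 94.4 CPM in control and 92.6, 111 and 123 CPM in IDA, with 9 IDA mice above all controls. Its log2 fold change was 0.33 ± 0.056 (edgeR adjusted p = 2.33e-05). Cars2, for cysteine (chromosome 8, 11514017 to 11550771), was the mitochondrial enzyme with no overlap, at 81.1, 87.8 and 95.1 CPM in control and 97.9, 110 and 124 CPM in IDA. Its log2 fold change was 0.31 ± 0.050 (edgeR adjusted p = 1.24e-05).

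Tars2, for threonine (chromosome 3, 95739974 to 95754977), gave 105, 114 and 130 CPM in control and 124, 141 and 156 CPM in IDA. Its log2 fold change was 0.30 ± 0.049 (edgeR adjusted p = 1.25e-05). Ears2, for glutamate (chromosome 7, 122038821 to 122067063), gave 30.0, 35.9 and 38.5 CPM in control and a wider 34.5, 42.7 and 55.6 CPM in IDA, and its log2 fold change was 0.30 ± 0.077 (edgeR adjusted p = 0.00141). In these genes 8 and 7 IDA mice, respectively, exceeded all controls. The other mitochondrial members called higher were Fars2 for phenylalanine (log2 fold change 0.30), Vars2 for valine (0.29), Yars2 for tyrosine (0.20) and Rars2 for arginine (0.15).

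Mars2, the mitochondrial methionyl enzyme, showed the opposite change, the largest fall of any member with TMM scaling alone. It is encoded by a single exon on chromosome 1 (55237177 to 55240058). The levels were 31.7, 36.9 and 39.9 CPM in control and 23.3, 26.7 and 32.4 CPM in IDA. All but 1 of the IDA mice were below the lowest control mouse, and none reached the control mean. The log2 fold change was -0.42 ± 0.059 (edgeR adjusted p = 2.4e-06), a 0.748-fold level. With length and GC content corrected, as given further on, its log2 fold change was -0.11.

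The mitochondrial members not called were Hars2 for histidine (log2 fold change 0.079), Nars2 for asparagine (-0.043), Lars2 for leucine, Iars2 for isoleucine and Wars2 for tryptophan. For Lars2 (chromosome 9, 123366940 to 123462664) the group means were nearly equal while the spread was not. Control values were 169, 173 and 181 CPM and IDA values 152, 170 and 199 CPM, so that 4 IDA mice lay above and 5 below the whole control range. Its coefficient of variation was 2.43% in control and 9.61% in IDA, with a log2 fold change of -0.0020 ± 0.045 (edgeR adjusted p = 0.973). The difference in spread was not tested.

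**Figure D2:**
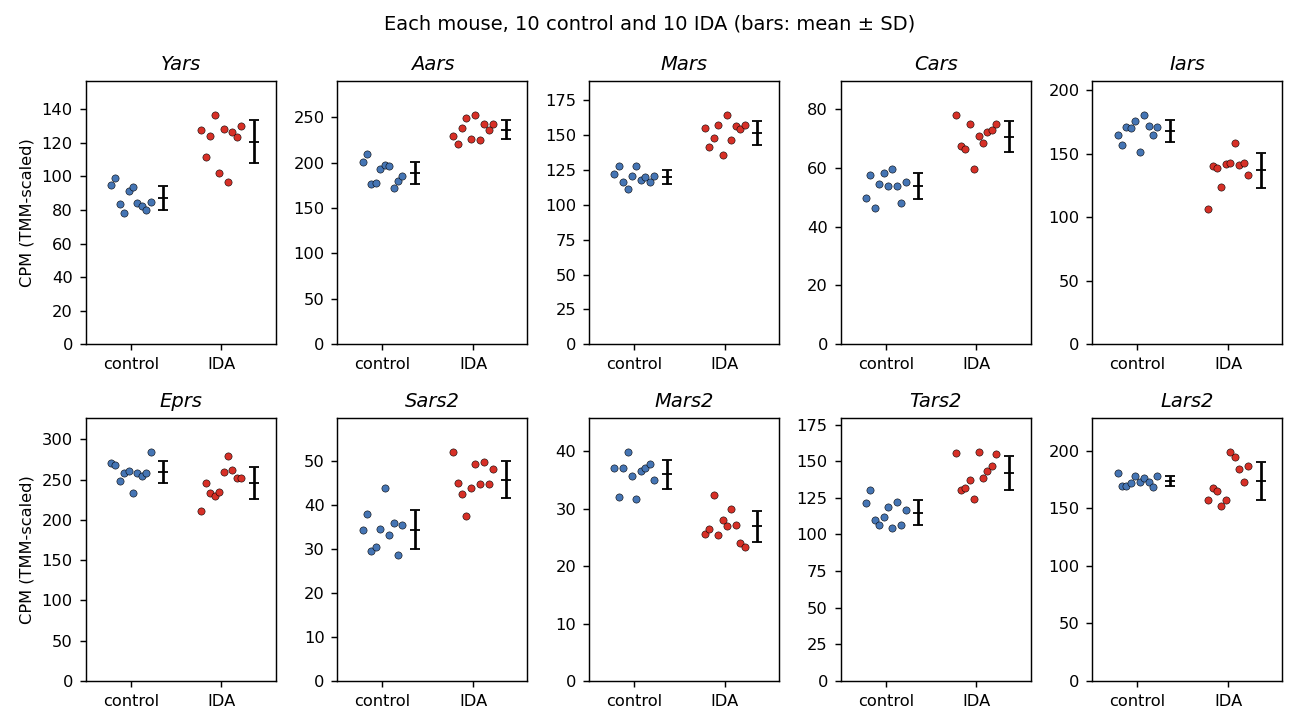
Level of 10 synthetases in every mouse (vertical axis, TMM-scaled CPM from 0), with control mice in blue, IDA mice in red and the mean ± SD beside each group (n = 10). Aars and Mars show no overlap between diets, Iars and Mars2 lie lower in IDA, and the Lars2 values of IDA mice extend on both sides of the narrow control range (169 to 181 CPM).

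Members of the multisynthetase complex and the free cytosolic enzymes were counted apart. For comparison, 35.0% of all tested genes were called higher and 32.5% lower. Of the 8 enzymes in the complex, Mars, Qars, Kars and Rars were higher, Iars was lower and Dars, Eprs and Lars were not called, with a median log2 fold change of 0.059. Of the 12 free enzymes 10 were higher and none lower, with Nars and Tars not called and a median of 0.25. By edgeR and by DESeq2, no free enzyme was lower at an unadjusted p below 0.05 either. The difference between these subgroups was not tested, and with the gene length correction their medians were 0.14 and 0.21. With length and GC content corrected, their medians were 0.20 and 0.19. In that fit 7 of the 8 enzymes of the complex and 11 of the 12 free enzymes were higher, against 27.5% of all tested genes. By catalytic fold, 12 of 19 class I enzymes were higher and 2 lower, while 12 of 17 class II enzymes were higher and none lower by edgeR or DESeq2, adjusted or not. The corresponding medians were 0.20 and 0.23.

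Pairs were formed for 14 amino acids whose cytosolic and mitochondrial enzymes were both members. This gave 15 pairs because the cytosolic phenylalanyl enzyme has 2 subunits. Eprs, the fused enzyme for glutamate and proline, was not paired with the members Ears2 and Pars2. Eprs was not called, while Ears2 and Pars2 were higher. Of the 15 pairs, both enzymes were higher in 8, 1 of the 2 was called in 4, neither in 2 and the calls were opposite in 1. The pair with opposite calls was that of methionine. The log2 ratio of Mars to Mars2 was 1.73 ± 0.16 (SD, n = 10) in control and 2.49 ± 0.19 in IDA. The control range of 1.47 to 2.00 and the IDA range of 2.18 to 2.74 did not overlap. Among the 15 pairs formed, this was the only one whose ratio separated the groups completely. These ratios come from TMM-scaled values. With length and GC content corrected, the log2 fold changes were 0.28 for Mars and -0.11 for Mars2. In that fit Tars had 0.089 and Tars2 0.49.

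Among the 15 pairs formed, tryptophan showed the next largest difference in log2 fold change with TMM scaling alone. This ranking leaves out Eprs, which was not paired. Its log2 fold change was -0.078, against 0.39 for Pars2 and 0.30 for Ears2, and both gaps were wider than that of tryptophan. Wars (chromosome 12, 108860030 to 108894174) measured 122, 136 and 179 CPM in control and 140, 159 and 172 CPM in IDA, with a log2 fold change of 0.20 ± 0.057 (edgeR adjusted p = 0.00328). No IDA mouse exceeded the highest control, control mouse 9 at 179 CPM, which stood apart from the next at 147 CPM. Its mitochondrial partner Wars2 (chromosome 3, 99141090 to 99220203) gave 18.7, 24.7 and 28.3 CPM in control and 18.1, 22.3 and 25.9 CPM in IDA (log2 fold change -0.12 ± 0.073, edgeR adjusted p = 0.137). Once the length trend was removed, Wars minus Wars2 was 0.12, while Tars minus Tars2 was -0.57 and Yars minus Yars2 0.49. After correction for length and GC content both tryptophan enzymes were called higher, without the split seen above. Wars then had 0.13 (edgeR adjusted p = 0.0468) and Wars2 0.20 (edgeR adjusted p = 0.0338).

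For threonine, the values of the cytosolic Tars (chromosome 15, 11383663 to 11399658) overlapped widely, at 78.7, 82.4 and 88.4 CPM in control and 77.6, 83.6 and 86.0 CPM in IDA (log2 fold change -0.012 ± 0.033, edgeR adjusted p = 0.768), while Tars2 was higher. For isoleucine, Iars fell, and Iars2 (chromosome 1, 185286662 to 185329401) spanned 240, 248 and 271 CPM in control and 215, 245 and 284 CPM in IDA (log2 fold change -0.046 ± 0.043, edgeR adjusted p = 0.352). As with Lars2, the IDA values of Iars2 reached beyond the controls on both sides, with 1 mouse above and 4 below. Its exons share 85 bp with Rab3gap2 on the opposite strand, which had a log2 fold change of -0.17. For histidine, Hars was called and Hars2 was not.

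**Figure D3:**
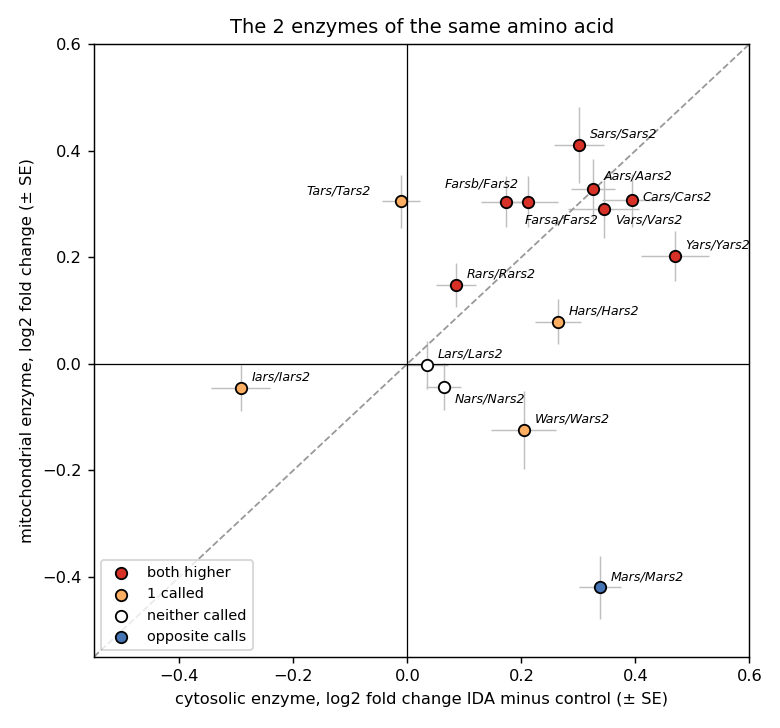
Log2 fold change (IDA minus control) of the cytosolic enzyme (horizontal axis) against that of the mitochondrial enzyme for the same amino acid (vertical axis), for 15 pairs with SE bars, the broken line marking equal change. The pairs with both enzymes higher (8, red) gather at the upper right, and Mars/Mars2 (blue) lies alone at the lower right with 0.34 and -0.42.

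Levels between genes were compared per kilobase of exon. In control hearts Kars was highest, at 88.2 ± 5.61 CPM per kb (SD, n = 10), followed by Iars2 at 71.2 ± 2.63 CPM per kb and Nars at 67.2 ± 2.82 CPM per kb. Iars2 and Nars differed by less than the sum of their SDs. At the low end were Pars2 at 5.58 ± 0.728 CPM per kb and Wars2 at 5.62 ± 0.636 CPM per kb, which did not differ beyond their spread. Per kilobase, the cytosolic enzyme was 8.50 times the mitochondrial one for tryptophan, 5.65 times for asparagine and 3.24 times for methionine in control. The order was turned for phenylalanine, where Farsa was 0.477 and Farsb 0.905 times Fars2, for cysteine (0.348), isoleucine (0.536), leucine (0.864) and tyrosine (0.867).

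Fold changes in these libraries fell with gene length across all genes. The 3397 tested genes with the shortest exons (median 1296 bp) had a median log2 fold change of 0.29 and the 3398 with the longest (median 5805 bp) one of -0.38. Exonic lengths of the members ran from 1587 bp for Yars2 to 4891 bp for Aars. When each mouse's length trend was removed, 12 cytosolic members were higher and none lower (edgeR, also none at an unadjusted p below 0.05), and 9 mitochondrial members were higher and 1 lower. Over all genes, 31.5% were then called higher and 23.5% lower. The medians were 0.19 for cytosolic and 0.16 for mitochondrial members, against 0.038 over all tested genes. Long members moved up, with Aars at 0.61, Vars at 0.56, Tars2 at 0.54 and Vars2 at 0.53 on the log2 scale (0.33, 0.34, 0.30 and 0.29 without the correction), and all 4 then exceeded Yars at 0.50.

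Eprs and Lars2, both long, were called higher only with the correction, with log2 fold changes of 0.20 (edgeR adjusted p = 0.00117) and 0.17 (edgeR adjusted p = 0.00692), opposite in sign to the uncorrected values. Lars (0.20) and Hars2 (0.14) also became called. The calls of Farsa, Farsb, Kars, Ears2, Rars2 and Yars2, which are shorter, were lost, as was that of Rars, whose value became -0.0080. Mars2 remained lower at -0.39 (edgeR adjusted p = 5.56e-06). In other fits, given below, Eprs was instead called lower: with library size as a covariate and within the second run of library numbers.

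A correction for transcript GC content together with length, added after the data were seen, left 18 cytosolic members higher and none lower by edgeR, adjusted or not, and 13 mitochondrial members higher and 1 lower. Under it 27.5% of all genes were called higher and 19.1% lower, and the medians were 0.19 and 0.17. Mars2, at 38.8% the member with the lowest GC content, was then lower by a log2 fold change of -0.11 (edgeR adjusted p = 0.0449). Sars2, with a GC content of 60.1%, had 0.077 and was not called (edgeR adjusted p = 0.276). Yars had 0.41, Aars 0.38 and Cars 0.36 under this correction.

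**Figure D4:**
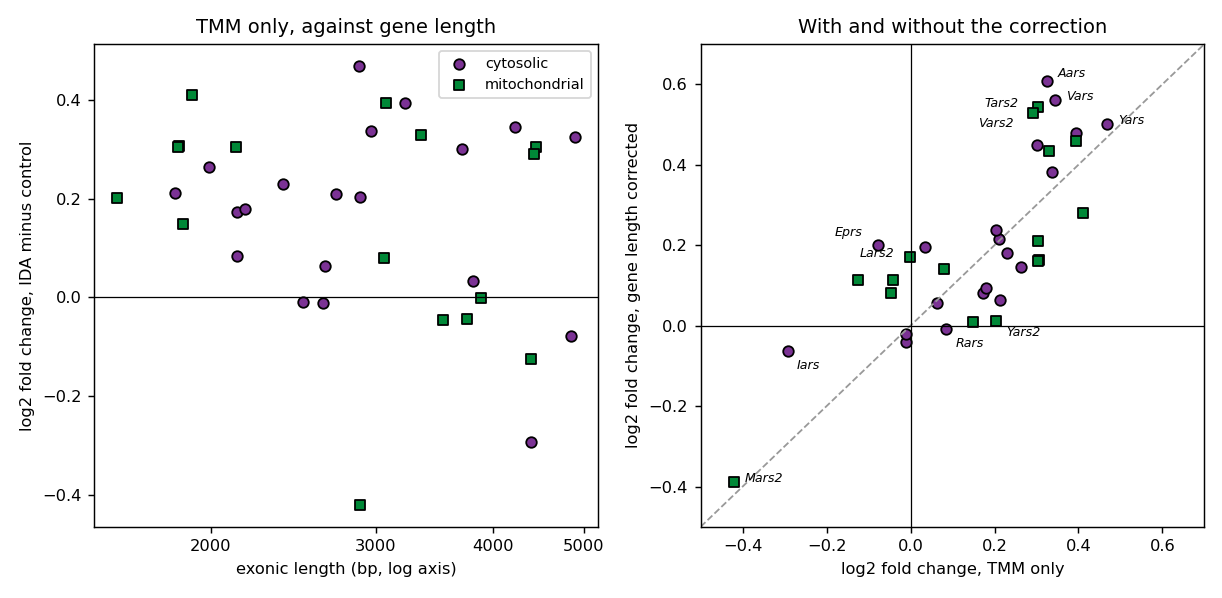
Left, log2 fold change of the 36 members (IDA minus control, vertical axis) against exonic length in bp on a log axis, with circles for cytosolic and squares for mitochondrial enzymes. Right, the same log2 fold changes with TMM scaling only (horizontal axis) and with the gene length correction (vertical axis). Long members such as Aars rose above the broken line of equality (0.33 to 0.61), Iars moved to near 0 and Mars2 stayed lower.

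The column names of the count table carry library numbers that fall into 2 runs, each holding mice of both diets. Within the first run (5 control and 7 IDA mice) 13 cytosolic and 9 mitochondrial members were higher, with 1 lower in each compartment, where 30.2% of all tested genes were called higher and 28.7% lower. Within the second run (5 control and 3 IDA mice) 6 were higher in each compartment, with 2 cytosolic members and 1 mitochondrial member lower, against 19.4% of tested genes higher and 24.1% lower. The median log2 fold changes were 0.24 and 0.25 in the first run and 0.15 and 0.22 in the second. Mars2 had -0.43 in the first and -0.38 in the second run, and Yars 0.50 and 0.42. Library size also differed between the diets, and with its log2 value as a covariate 11 cytosolic members were higher and 2 lower, and 9 mitochondrial members were higher and 2 lower, where 29.1% of tested genes were called in each direction. Eprs was among the cytosolic members lower in this fit (-0.13, edgeR adjusted p = 0.0248) and within the second run (-0.20, edgeR adjusted p = 0.0298). Iars2 was lower with library size as a covariate (-0.11, edgeR adjusted p = 0.0355). It was higher with length and GC content corrected (0.16, edgeR adjusted p = 0.00588).

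The promoters of the members were searched for 3 short sequences, since so many of them moved together. RefSeq windows of GRCm38.p6, from 250 bases before to 50 after the gene start, were found for 27 of the 36 members. The C/EBP-ATF response element, searched as TGATGNAA on both strands, occurred in 5 of the 27 windows (18.5%), those of Aars, Gars, Iars, Tars and Yars. All of these are cytosolic enzymes, giving 5 of 13 cytosolic windows and 0 of 14 mitochondrial windows, where 2.76% of the windows of tested genes and 4.51% of all windows held it. The 3 members in which the match lies upstream of the start are shown here in the direction of the gene, with the match in capitals as it reads on that strand, where it is the reverse complement of the letters searched.
Aars (chr8:111033700-111033767, plus strand, GRCm38.p6): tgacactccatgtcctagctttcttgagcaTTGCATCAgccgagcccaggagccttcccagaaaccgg
Gars (chr6:55037941-55038000, plus strand, GRCm38.p6): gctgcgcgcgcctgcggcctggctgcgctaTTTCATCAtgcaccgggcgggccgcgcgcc
Tars (chr15:11399659-11399703, minus strand, GRCm38.p6): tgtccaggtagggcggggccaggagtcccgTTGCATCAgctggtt
The matches begin 112, 30 and 15 bases before the start in Aars, Gars and Tars. The response of these genes to diet was not uniform: Aars, Gars and Yars were higher, Iars was lower and Tars was not called. Among members called higher 3 of 18 windows held the element, and among the others 2 of 9.

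The core of NRF1, a transcription factor of many housekeeping and mitochondrial genes, searched as CGCANGCG, occurred in 10 of 27 windows (37%), against 18.7% of tested genes. These were 6 of 13 cytosolic and 4 of 14 mitochondrial windows, and Mars2 was among the latter. The ETS core, searched as CCGGAAG, occurred in 9 of 27 windows (33.3%), against 18.9% of tested genes. Of members called higher 8 of 18 windows held it, and of the others 1 of 9, that of Mars2. These matches describe the letters of the windows alone, and no match of 1 kind overlapped one of another kind in the members' windows.

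Genes that work beside the synthetases were counted in lists of symbols. Of 47 tested genes of charging, delivery and maturation, 28 were higher, 7 lower and the median log2 fold change was 0.15. The shares over all tested genes were 35.0% higher and 32.5% lower. With the gene length correction 20 of the 47 were higher and 10 lower, with a median of 0.089, against 31.5% and 23.5% of all tested genes. With length and GC content corrected, 23 were higher and 3 lower, with a median of 0.13, against 27.5% and 19.1%. Of the scaffold proteins of the multisynthetase complex, Aimp2 (log2 fold change 0.45) and Aimp1 (0.30) were higher with TMM scaling alone, and Eef1e1, with -0.10, was not called. All are short, with exons of 1039 to 1185 bp. With the gene length correction Aimp2 was higher at 0.19, Aimp1 was not called at 0.028 and Eef1e1 was lower at -0.38 (edgeR adjusted p = 0.000111). With length and GC content corrected, Aimp1 (0.26) and Aimp2 (0.13) were higher and Eef1e1 (-0.26) was lower. Among other synthetases and synthetase-like genes, 2 of 5 were higher and 1 lower with TMM scaling alone. Pet112 (0.27) and Qrsl1 (0.17), subunits of the mitochondrial enzyme complex that makes glutaminyl-tRNA, were higher, and Tarsl2 (-0.26), a threonyl-tRNA synthetase-like protein, was lower.

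All 4 genes of editing and proofreading were higher, from Prorsd1 (0.40) and Dtd2 (0.36) to Aarsd1 (0.33) and Dtd1 (0.21), each of which removes or prevents wrong pairings of amino acid and tRNA. All 5 elongation factor genes that deliver charged tRNA in the cytosol were higher as well, led by Eef1d (0.29) and Eef1g (0.28), with Eef1a1 (0.16) and Eef1a2 (0.15) lowest. With the gene length correction, 2 genes of each of these lists were called higher. Of the elongation factor genes 3 were higher with library size as a covariate and 0 within the second run, and Eef1a2 was lower with length and GC content corrected (log2 fold change -0.18, edgeR adjusted p = 0.0161). Of export and initiation genes, Eif2s2 (0.13) and Eif2s1 (0.092) were higher while Eif2s3x (-0.33) and the tRNA exporter Xpot (-0.29) were lower. Xpot, which has exons of 5989 bp, was higher by 0.092 with the length correction.

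Of 7 mitochondrial translation factors 3 were higher and 2 lower, shares near the 35.0% and 32.5% of all tested genes. Tsfm (0.39), the exchange factor of the mitochondrial elongation factor that delivers charged tRNA, and Mtif3 (0.29), an initiation factor, were higher, whereas the elongation factor Gfm1 (-0.18) and the initiation factor Mtif2 (-0.15) were lower. Mtfmt, which formylates the methionyl-tRNA charged by Mars2, had a log2 fold change of -0.0042 and was not called. Of 19 tested tRNA maturation genes 10 were higher and 2 lower. Pop5 (0.55), a subunit of RNase P, and Trmu (0.46), which modifies mitochondrial tRNAs, were highest, and Elac1 (-0.20), which trims tRNA ends, and Mto1 (-0.12), which modifies mitochondrial tRNAs, were lowest. With the gene length correction 7 of these 19 genes were higher and 4 lower, and with length and GC content corrected 9 and 1.

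Genes of the amino acid response were higher in 13 of 19 cases with TMM scaling, with a median log2 fold change of 0.33. None was lower by edgeR or DESeq2, adjusted or not. Over all tested genes, edgeR called 35.0% higher and 32.5% lower. Asns, asparagine synthetase, rose from a median of 6.39 CPM in control to 12.7 CPM in IDA (log2 fold change 0.95 ± 0.18, edgeR adjusted p = 7.41e-05). With the erythroid markers as a covariate its log2 fold change was 0.47 and was not called (edgeR adjusted p = 0.18). Phgdh, the first enzyme of serine synthesis, was higher by 0.89 ± 0.24 (edgeR adjusted p = 0.00216) at a low level, with medians of 1.08 and 1.96 CPM. The smallest called changes were those of Shmt2 (0.18) and Eif4ebp1 (0.28). Atf4 itself had a log2 fold change of 0.31 ± 0.045 (edgeR adjusted p = 3.12e-06), and 0.15 with the gene length correction. With that correction 10 of the 19 genes were higher, and 8 were with length and GC content corrected, with the erythroid markers as a covariate and within the second run. In the same order, 31.5%, 27.5%, 25.6% and 19.4% of all tested genes were higher in these fits. Lower calls appeared for Cth with the run as a covariate (-0.50) and within the first run (-0.88), and for Chac1 (-0.52) and Cebpb (-0.38) within the second.

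**Figure D5:**
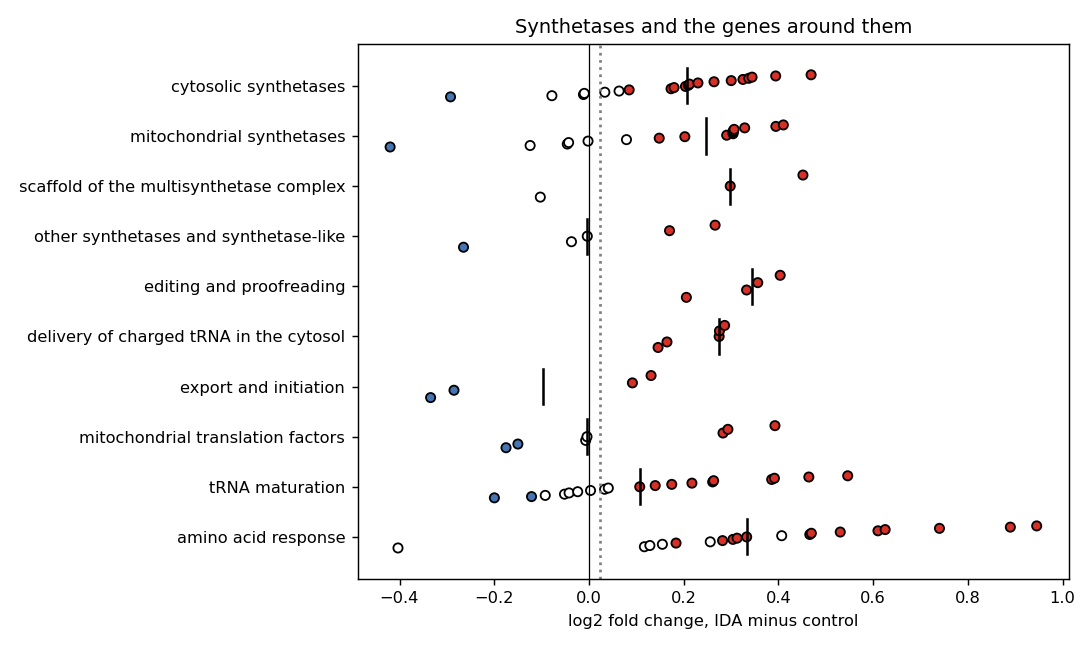
Log2 fold change (IDA minus control, horizontal axis) of the synthetases of each compartment and of the companion lists, 1 point per gene, with red for higher, blue for lower and white for not called, and a black bar at each median. The dotted line is the median of all tested genes (0.023), and the amino acid response reaches furthest, to 0.95 for Asns.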

How the data were processed

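The authors deposited 1 table of read counts per gene for 20 heart libraries, with exon coordinates on mm10 and exonic lengths. Per the labels, reads were aligned with STAR and counted with featureCounts, and version 1.4.5-p1 is given in the file header. The study removed PCR duplicates before counting. The study left out 1 unnamed mouse of each group, so all 20 were kept here and the 100 pairs of 1 control and 1 IDA mouse were left out in turn. Counts were scaled by TMM and tested with edgeR 4.0.16 (R 4.3.3; quasi-likelihood, diet alone) on those genes that reached 1 CPM in 10 or more mice, and called at a Benjamini-Hochberg adjusted p below 0.05. All 36 members passed this filter. A fold change is IDA over control.

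For the length correction, the deviation of each gene from its mean log2 CPM (prior count 2) was smoothed on log2 exonic length in each mouse (loess, span 0.5, degree 1) and entered as an offset. Other alternatives were DESeq2 1.42.0, median-ratio factors, library size only, no filter, covariates and a replicate block. Fits were tested on simulated data of the 13590 genes. Without a length trend in the simulation, edgeR called 81% of log2 changes of 0.5, 98% of changes of 1 and 0.0747% of unchanged genes. The real libraries had such a trend, so these rates do not carry over to the uncorrected fit. With the trend simulated and the length correction applied, the rates were 83%, 99% and 0.0747%. Same-numbered mice correlated above 0.1 in 3 of 10 pairs, so numbers were not taken as pairs, and the lowest chi-square per gene between 2 mice of a group was 1.50, so none was counted as a duplicate.

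The members and the companion lists were chosen with earlier results of these data known. Lowest, median and highest CPM are given for the 12 called members with the largest change, for called members whose sign turned with the length correction and for up to 4 amino acid pairs with 1 or opposite calls. Of each companion list the 2 called genes highest and the 2 lowest are named. Eef1e1, Mtfmt and Atf4 were added for their role. Coordinates are the outer bounds of each gene's exons. Members reached 0.040 to 0.695 read pairs per exonic base and the highest gene 2.16. Counting is not stated to use strand. Promoter windows come from RefSeq. Some genes of the lists are not reported here.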

Additional observations from a re-analysis of the deposited data

Results flagged for a closer look

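Among the 72 groups of 10 values (36 members in each diet), 3 had an extreme value further from its neighbour than Dixon's test allows, where chance alone gives about 1 in 20 groups. All were the highest value of the control group. Farsa stood at 56.9 CPM in control mouse 6, with the next mouse at 50.6 CPM. Vars stood at 128 CPM in control mouse 2, with the next at 114 CPM. Wars stood at 179 CPM in control mouse 9, with the next at 147 CPM. Each lies toward the IDA values of its gene, and each gene was called higher in IDA with these mice included.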

How the results depend on the processing

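Against the edgeR result, DESeq2, median-ratio factors, the fit without a filter and the fit with library number run as a covariate moved none of the compartments' counts past 1.5 times, and neither did a p below 0.01 in both packages. The replicate block left 14 cytosolic members higher and 1 lower and 10 mitochondrial members higher and 1 lower, with medians of 0.21 and 0.25. It changed no call of a member. Cytosolic members called lower numbered 0 with the length correction and with length and GC together, and 2 with library size as a covariate and within the second run, where 6 members of each compartment were higher. Mitochondrial members called lower numbered 2 with library size as a covariate, and the mitochondrial median was 0.34 with the erythroid covariate. When 1 mouse of each group was left out, cytosolic members called higher numbered 13 to 15 and lower 1 to 2, and mitochondrial members called higher 10 to 11 and lower 1 to 2. The added lower calls arose without IDA mouse 7 or control mouse 6. In the same 100 fits, Nars became called in 11, Eprs and Hars2 in 10 each, Wars2 in 8 and Iars2 in 1. Medians ran from 0.17 to 0.23 and from 0.21 to 0.27. Changes of sign concerned members near 0 and Eprs, Wars2 and Rars. With the length correction, Eprs had a log2 fold change of 0.20, Lars2 0.17, Wars2 0.11, Nars2 0.11, Iars2 0.081 and Rars -0.0080. With length and GC, Eprs had 0.35, Nars2 0.25, Wars2 0.20, Dars 0.19, Iars2 0.16, Lars2 0.12 and Tars 0.089. With library size only, Lars2 had 0.049, Dars 0.043, Tars 0.042, Nars2 0.0096 and Iars2 0.0054. With the erythroid covariate, Lars2 had 0.094, Wars2 0.017 and Nars2 0.016. Lars had -0.011 with library size as a covariate and -0.029 within the second run, where Nars2 had 0.029. Within the first run Lars2 had 0.035, Dars 0.034 and Tars 0.0043. Over the mice left out, Lars2 ran from -0.041 to 0.024, Dars from -0.049 to 0.019 and Tars from -0.037 to 0.0074. The cause of these changes was not tested. Counts of 90 or more per member in every mouse set the precision, with coefficients of variation of 2.43% to 15.1%.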
